A study of Mus musculus with 8 samples.

Results

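The Fanconi anemia genes described here are 10 members of one DNA repair pathway, *Fanca*, *Fancc*, *Fancd2*, *Fance*, *Fancf*, *Fancg*, *Fanci*, *Fancl*, *Fancm* and *Slx4*, taken by gene name from the 21058 genes of the deposited tables and not by any measured value. Their transcript abundance was measured by RNA-seq in pachytene spermatocytes of 4 *Arid1a* WT and 4 *Arid1a* cKO mouse samples. The aim was to ask which transcripts depend on ARID1A, a putative DNA-binding subunit of the BAF chromatin remodeler, in male meiosis. *Arid1a* cKO males were adults on a CD1 background that were Arid1a fl/fl and carried the *Stra8-Cre* transgene, which is active from spermatogonia onward. The *Arid1a* WT controls of the same colony lacked the transgene and were Arid1a fl/fl or Arid1a fl/+, so controls also carried floxed alleles. The spermatocytes were enriched from pooled testes of several males by Sta-Put, a unit-gravity sedimentation of dissociated testis cells that parts them by size. The study describes excision by *Stra8-Cre* as incomplete, so the cKO fractions also held spermatocytes that kept ARID1A. It also reports that spermatocytes lacking ARID1A arrest at mid-pachynema. The WT and cKO fractions may thus differ in pachytene substage, and the part of this in the results was not tested.

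The Fanconi anemia pathway repairs DNA crosslinks that join both strands of the helix and so block replication forks. FANCM and its partners find the stalled fork and bring in the core complex, in which FANCA, FANCG, FANCC, FANCE and FANCF surround the ubiquitin ligase FANCL. The ligase attaches ubiquitin to the paired proteins FANCI and FANCD2, and these, together with the scaffold SLX4, direct nucleases to cut out the crosslink. In the testis, loss of several of these genes depletes germ cells, and FANCD2 and other members of the pathway gather on the sex chromosomes of pachytene spermatocytes.

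Of the 10 Fanconi anemia genes, 8 were lower in *Arid1a* cKO and 0 were higher by edgeR's quasi-likelihood test (called where the p adjusted by Benjamini-Hochberg was 0.05 or less). Among all 17643 genes tested, 37.5% were called lower and 36.5% were called higher, so changes of this kind were widespread. The same 8 members had every *Arid1a* cKO library below every *Arid1a* WT library in CPM (reads of a gene relative to its library's total, on a common scale), a pattern found in 34.9% of genes tested. The opposite pattern, with every *Arid1a* cKO library above, was found for 0 members and 34.0% of genes tested. The remaining pair, *Fance* and *Fancf*, had overlapping groups and were not called. Across the 10 members, the median log2 fold change was -0.67, and over all genes tested it was -0.020. The changes were uneven, from a 3.49-fold lower level for *Fancg* and 3.06-fold for *Fanci* to 1.34-fold for *Slx4*. *Fancg* and *Fanci* lay near the lower end of all genes, where 4.35% and 6.06% of genes tested had a more negative log2 fold change. In contrast, 35.3% of genes tested had a more negative value than *Slx4*.

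**Figure D1:**
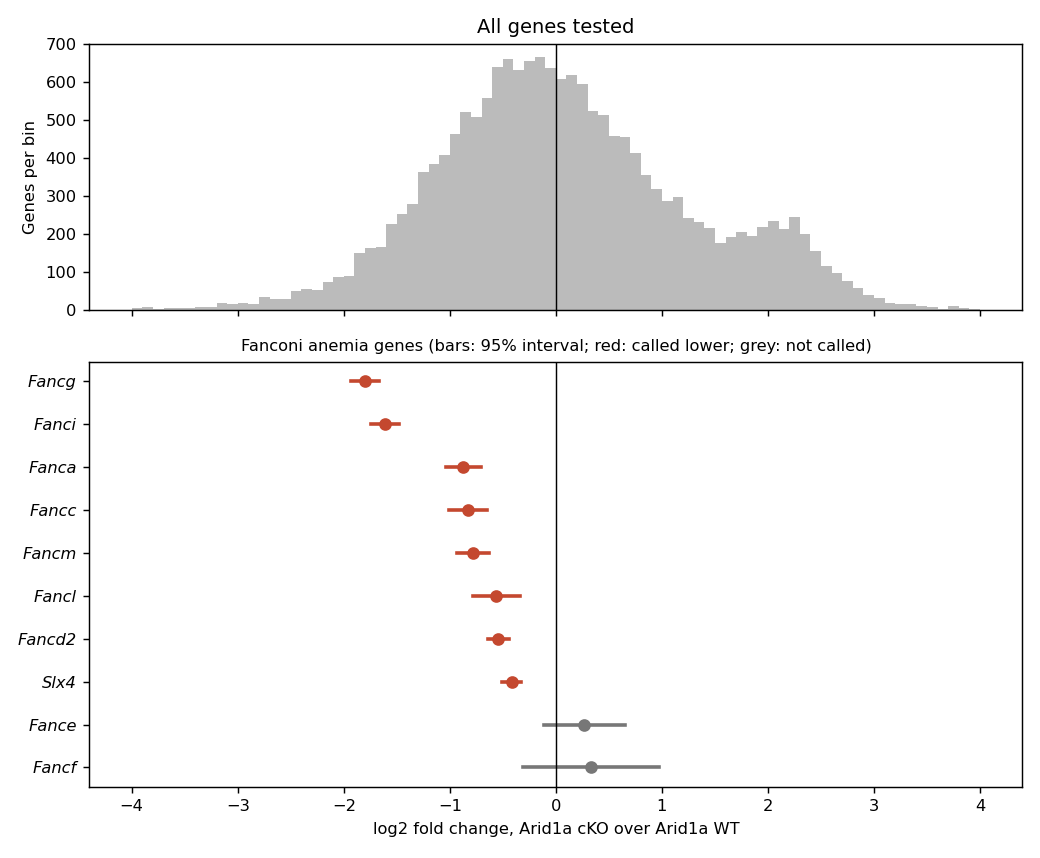
The upper panel is a histogram of the log2 fold change (*Arid1a* cKO over *Arid1a* WT) of all 17643 genes tested, in genes per bin, and the lower panel gives the 10 Fanconi anemia genes as points with 95% intervals. *Fancg* (-1.80) and *Fanci* (-1.61) lie farthest to the left, the 8 red points are genes called lower, and *Fance* and *Fancf* in grey have intervals that cross 0 (*Slx4* turns to 0.044 when libraries are scaled to pachytene markers).

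Libraries held 18308688 to 22044507 estimated counts in *Arid1a* WT and 15850961 to 21626772 in *Arid1a* cKO. *Arid1a* itself was at 105, 129, 121 and 98.8 CPM in *Arid1a* WT and at 76.4, 81.02, 82.9 and 78.3 CPM in *Arid1a* cKO, a 1.42-fold lower level without overlap (log2 fold change -0.51, SE 0.075, edgeR adjusted p = 2.31e-05). By RT-PCR the study detected a shortened *Arid1a* transcript from the excised allele in cKO spermatocytes. This level over the whole gene thus does not measure excision. Markers of other cells moved with genotype as well. All 10 round and elongating spermatid markers were called higher in *Arid1a* cKO, with a summed level of 5516 to 6296 TPM (the same after division by transcript length) in *Arid1a* WT and 22800 to 24730 in *Arid1a* cKO. Sertoli markers summed to 325 to 378 and 79.1 to 88.6 TPM, with 5 of 6 called lower and *Rhox5* at 0 in every library, and the 5 Leydig markers, all called lower, to 76.2 to 89.0 and 6.57 to 8.30 TPM. Spermatogonial markers summed to 120 to 132 and 126 to 135 TPM (7 of 8 higher and 1 lower), leptotene and zygotene markers to 162 to 187 and 78.7 to 83.1 TPM (4 of 7 higher and 3 lower), and macrophage and blood markers to 5.85 to 6.94 and 7.90 to 10.2 TPM (4 of 7 higher, 1 lower, 1 not called and 1 not in the table). All 9 markers of pachytene spermatocytes were detected, and they summed to 5178 to 5563 TPM in *Arid1a* WT and 4262 to 4340 TPM in *Arid1a* cKO, with 6 called lower and 2 higher. The part of these differences in the results for the Fanconi anemia genes was not tested, and in bulk samples fewer cells of a type and less RNA per cell cannot be told apart. As a measurement that bears on it, libraries were also scaled to the 9 pachytene markers, an alternative chosen after seeing the data that moved the median log2 fold change of all genes to 0.44. The 9 markers did not shift together, with log2 fold changes from -3.88 (*Piwil1*) to 1.504 (*Pgk2*) and a median of -0.50, so this scale rests on a mixed reference. On that scale *Fancg*, *Fanci*, *Fanca*, *Fancc* and *Fancm* were still called lower, *Fance* was called higher, and *Fancd2*, *Fancl*, *Slx4* and *Fancf* were not called. *Arid1a* itself also lost its call on that scale (log2 fold change -0.054, edgeR adjusted p = 0.711).

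**Figure D2:**
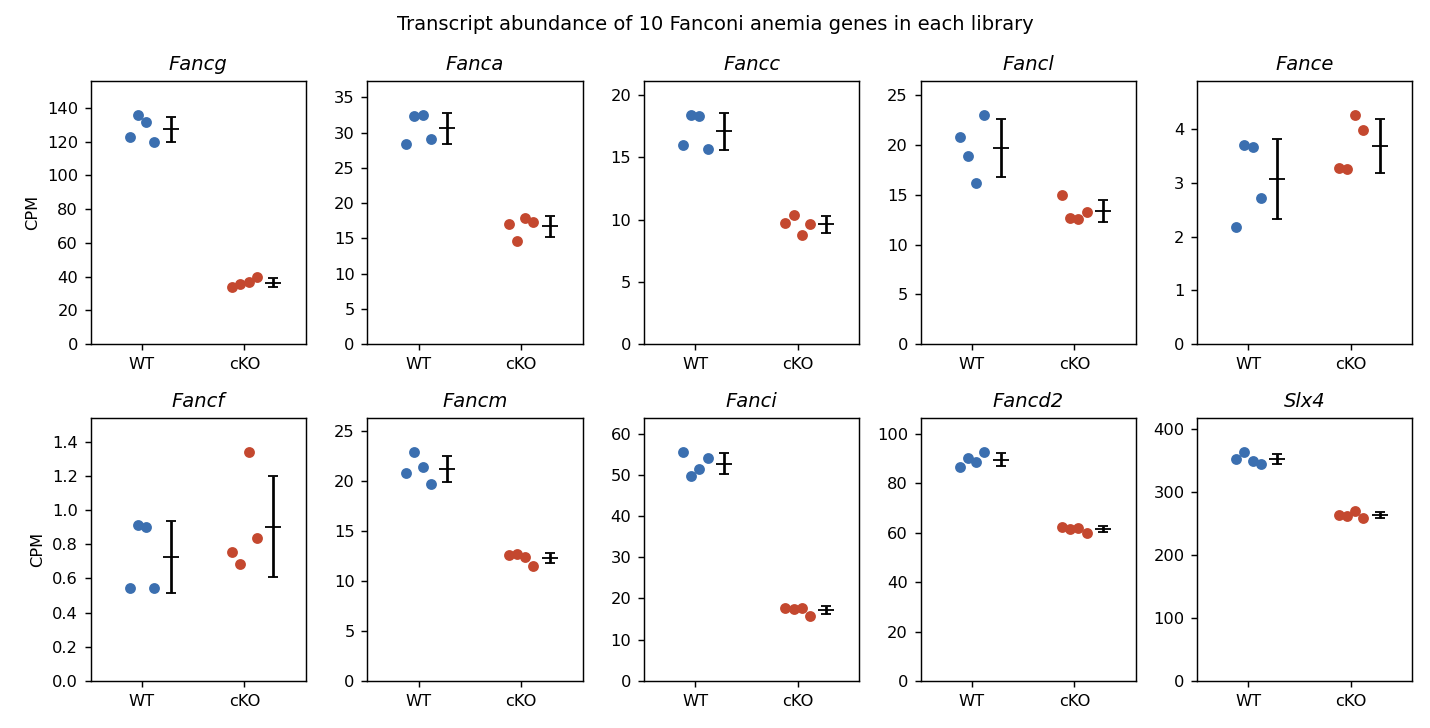
Each point is the CPM (vertical axis, linear, from 0) of 1 library for each of the 10 Fanconi anemia genes, with 4 *Arid1a* WT libraries in blue and 4 *Arid1a* cKO libraries in red, and the bar is the mean and SD. The groups are apart for 8 genes and overlap for *Fance* and *Fancf*, whose highest libraries are at 4.26 and 1.34 CPM.

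The core complex held 6 of the 10 genes, of which *Fancg*, *Fanca*, *Fancc* and *Fancl* were called lower. *Fancg* (gene ID 60534, chr4:43002337-43010567, GRCm38.p6) encodes the tetratricopeptide repeat protein that binds FANCA directly and holds it in the complex. Its level was 122, 136, 131 and 120 CPM in *Arid1a* WT (127 ± 7.49, SD, n = 4) and 33.6, 35.9, 36.7 and 39.8 CPM in *Arid1a* cKO (36.5 ± 2.59). The lowest *Arid1a* WT library was thus far above the highest *Arid1a* cKO library. The log2 fold change was -1.80 (SE 0.062, 95% interval of the fold 3.18 to 3.83, edgeR adjusted p = 2.36e-12), and over 23 alternative settings it ranged from -2.23 to -1.34.

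*Fanca* (gene ID 14087, chr8:123266294-123318651) encodes the largest subunit of the core complex and the partner of FANCG. Its level was 28.4, 32.4, 32.5 and 29.1 CPM in *Arid1a* WT (30.6 ± 2.15, SD, n = 4) and 17.1, 14.6, 17.9 and 17.3 CPM in *Arid1a* cKO (16.7 ± 1.43). The groups did not overlap, and the level fell by 0.87 on the log2 scale (SE 0.075, edgeR adjusted p = 7.90e-08). Exons of *Fanca* overlap those of *Zfp276* on the opposite strand over 920 of 8761 exonic bases (10.5%), and *Zfp276* went from 16.2 to 4.08 CPM. The study prepared libraries with a Kapa mRNA HyperPrep kit, but whether strand was used in the counting is not stated in the sources used. It is thus not known here whether reads from the shared bases were told apart.

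*Fancc* (gene ID 14088, chr13:63301334-63497292) and *Fance* (gene ID 72775, chr17:28313530-28326574) encode subunits that bind each other, and FANCE also contacts FANCD2. *Fancc* was at 16.0, 18.4, 18.3 and 15.7 CPM in *Arid1a* WT (17.1 ± 1.46, SD, n = 4) and at 9.74, 10.4, 8.76 and 9.64 CPM in *Arid1a* cKO (9.63 ± 0.672). The groups were well apart, and the fall of 0.83 on the log2 scale (SE 0.083, edgeR adjusted p = 4.41e-07) was 1.78-fold. An opposite-strand gene, *Gm16133*, covers 16.4% of the exonic bases of *Fancc*. *Fance* was at 2.18, 3.70, 3.66 and 2.73 CPM in *Arid1a* WT and at 3.28, 3.25, 4.26 and 3.98 CPM in *Arid1a* cKO, from 43.8 to 89.3 estimated counts per library. Its groups overlapped, and the log2 fold change of 0.27 (SE 0.18, 95% interval -0.11 to 0.65, edgeR adjusted p = 0.188) had a negative sign on the TPM scale and with transcript length offsets. Without *Arid1a* WT library 1, the lowest, it was 0.14. On the CPM scale the interval does not reach a fall of the size seen for *Fancc*.

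*Fancf* (gene ID 100040608, chr7:51860577-51862267) encodes the adaptor between FANCC with FANCE and FANCA with FANCG, and its single annotated transcript was the least abundant of the 10 genes. It was at 0.544, 0.915, 0.903 and 0.546 CPM in *Arid1a* WT and at 0.754, 0.685, 1.34 and 0.835 CPM in *Arid1a* cKO, from 11 to 28 estimated counts per library. The groups overlapped, and the log2 fold change was 0.33 (SE 0.30, 95% interval -0.31 to 0.97, edgeR adjusted p = 0.331). The interval takes in a 1.24-fold lower level in *Arid1a* cKO as well as a rise, so a difference was not detectable in these libraries. Without *Arid1a* cKO library 3, the highest, the log2 fold change of *Fancf* was 0.058, and without *Arid1a* WT library 1 it was 0.22. Its exons overlap *Gas2* on the opposite strand over 253 of 1691 bases (15%), and *Gas2* was at 10.6 CPM in *Arid1a* WT and 5.72 CPM in *Arid1a* cKO, above *Fancf* in both.

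*Fancl* (gene ID 67030, chr11:26387084-26471883) encodes the ubiquitin ligase, the catalytic subunit of the core complex. It was at 20.8, 18.9, 16.2 and 23.0 CPM in *Arid1a* WT (19.7 ± 2.89, SD, n = 4) and at 14.96, 12.7, 12.6 and 13.3 CPM in *Arid1a* cKO (13.4 ± 1.10). The closest libraries of the groups, 16.2 and 14.96 CPM, nearly met, and *Fancl* had the narrowest gap of the 8 genes called. It fell by 0.56 on the log2 scale (SE 0.10, edgeR adjusted p = 0.000177). *Vrk2*, which shares 462 of 3372 exonic bases with *Fancl* on the opposite strand (13.7%), was at 29.9 CPM in *Arid1a* WT and 27.2 CPM in *Arid1a* cKO.

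*Fancm* (gene ID 104806, chr12:65074110-65131842) encodes the DNA translocase that remodels stalled forks and anchors the core complex to them. It was at 20.8, 22.9, 21.4 and 19.7 CPM in *Arid1a* WT (21.2 ± 1.32, SD, n = 4) and at 12.6, 12.7, 12.4 and 11.5 CPM in *Arid1a* cKO (12.3 ± 0.542). In CPM the groups were well apart, with a fall of 0.78 on the log2 scale (SE 0.069, edgeR adjusted p = 1.08e-07). In TPM, which is divided by transcript length, the same libraries ran from 4.11 to 8.55 in *Arid1a* WT and from 2.47 to 5.86 in *Arid1a* cKO and overlapped.

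*Fanci* (gene ID 208836, chr7:79392312-79450266) and *Fancd2* (gene ID 211651, chr6:113531640-113597020) encode the paired substrates of FANCL, which clamp onto DNA once they carry ubiquitin. *Fanci* was at 55.5, 49.8, 51.4 and 54.1 CPM in *Arid1a* WT (52.7 ± 2.58, SD, n = 4) and at 17.8, 17.5, 17.8 and 15.8 CPM in *Arid1a* cKO (17.2 ± 0.942). It fell by 1.61 on the log2 scale (SE 0.061, edgeR adjusted p = 6.49e-12), with a 95% interval of the fold from 2.79 to 3.34. *Fancd2* was at 86.5, 90.2, 88.6 and 92.7 CPM in *Arid1a* WT (89.5 ± 2.60) and at 62.5, 61.4, 61.9 and 59.9 CPM in *Arid1a* cKO (61.4 ± 1.11). Its fall of 0.54 (SE 0.045, edgeR adjusted p = 4.96e-08) was without overlap and smaller than that of *Fanci*, whose interval lay wholly above the 1.36- to 1.56-fold interval of *Fancd2*. The opposite-strand gene *Fancd2os*, which shares 257 of 7937 exonic bases with *Fancd2* (3.24%), went from 14.7 to 92.8 CPM, and *Polg*, which shares 921 of 5774 exonic bases with *Fanci* (16%), from 183 to 141 CPM.

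*Slx4* (gene ID 52864, chr16:3979105-4003829) encodes the scaffold on which the nucleases XPF-ERCC1, MUS81-EME1 and SLX1 assemble. It was the most abundant of the 10 transcripts, at 352, 363, 348 and 343 CPM in *Arid1a* WT (351 ± 8.37, SD, n = 4) and at 264, 262, 269 and 258 CPM in *Arid1a* cKO (263 ± 4.34). The spread within groups was small, so the 1.34-fold fall was without overlap (log2 fold change -0.42, SE 0.044, edgeR adjusted p = 6.38e-07). Scaled to the pachytene markers the sign turned, to 0.044 with an adjusted p of 0.606. Neither *Slx4* nor *Fancg* shares exons with an opposite-strand gene in GENCODE M21, and 0.642% and 0% of their 31-base words occur in transcripts of other genes. That share was 2.83% for *Fancd2*, 4.01% for *Fance* and 6.53% for *Fancm*. It was 10.9% for *Fanca*, 12.3% for *Fancl*, 13.4% for *Fancf*, 14.2% for *Fanci* and 17.2% for *Fancc*. Words were matched on either strand, so these shares take in exons shared with opposite-strand genes. If strand was not used in the counting, counts of the last 5 rest more on how reads were divided between genes. Opposite-strand genes cover 5.51% and 1.56% of the exonic bases of *Fancm* and 3.26% of those of *Fance*.

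Levels of different genes were compared in TPM, which accounts for length. In *Arid1a* WT the order of mean TPM was *Slx4* (155), *Fancg* (88.4), *Fancd2* (29.9), *Fancl* (21.3), *Fanca* (19.95), *Fanci* (18.4), *Fancc* (12.4), *Fancm* (6.64), *Fance* (5.74) and *Fancf* (0.690). *Fanca* overlapped both *Fancl* and *Fanci* over the libraries, and *Fancm* overlapped *Fance*, so those neighbours had no clear order. In *Arid1a* cKO the first 5 places held the same genes, from *Slx4* (103), *Fancg* (20.1), *Fancd2* (17.9) and *Fancl* (13.8) to *Fanca* (8.65), although *Fanca* overlapped the next gene, *Fancc* (7.47). *Fanci* (5.57 TPM) now lay below *Fancc*, without overlap, and was followed by *Fance* (4.76), *Fancm* (3.94) and *Fancf* (0.774), where *Fance* overlapped both *Fanci* and *Fancm*. The gap from *Fancg* to *Fancd2* narrowed from 88.4 against 29.9 TPM to 20.1 against 17.9 TPM. Summed over the 10 genes, TPM was 335 to 384 in *Arid1a* WT and 184 to 188 in *Arid1a* cKO. *Slx4* took 42.4 to 43.9% of that sum in *Arid1a* WT and 54.5 to 56.1% in *Arid1a* cKO, while *Fancg* went from 23.8 to 26.0% down to 10.3 to 11.5%. The listed genes took 78.1 to 81.1% of all TPM in *Arid1a* WT libraries and 88.1 to 88.6% in *Arid1a* cKO libraries, and this difference lies within every TPM level given here.

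To ask whether transcripts of partner proteins changed by different amounts, 4 ratios of partner genes were compared within each library. The TPM ratio of *Fancd2* to *Fanci* was 1.46, 1.68, 1.70 and 1.65 in *Arid1a* WT (1.62 ± 0.110, SD, n = 4) and 2.95, 3.22, 3.39 and 3.30 in *Arid1a* cKO (3.22 ± 0.193). The TPM ratio of *Fanca* to *Fancg* was 0.246, 0.188, 0.258 and 0.214 in *Arid1a* WT (0.226 ± 0.0319) and 0.389, 0.414, 0.439 and 0.473 in *Arid1a* cKO (0.429 ± 0.0359). Both ratios were thus higher in 4 of 4 *Arid1a* cKO libraries, by 0.99 and 0.93 on the log2 scale. By a two-sided exact permutation test over 70 assignments each gave p = 0.0286, the smallest this design allows, and a Benjamini-Hochberg adjusted value over the 4 ratios of 0.0571. The ratio of *Fance* to *Fancf* was 8.10 ± 2.44 in *Arid1a* WT and 6.39 ± 0.960 in *Arid1a* cKO (exact permutation test, p = 0.286, adjusted 0.286). For *Fancc* to *Fance* it was 2.49 ± 0.790 and 1.61 ± 0.393 (exact permutation test, p = 0.143, adjusted 0.190). The groups overlapped for both of these ratios, and the third *Arid1a* WT library stood out, with a *Fance* level of 10.3 TPM where the others were at 3.55 to 5.38 TPM. That library was the *Arid1a* WT one that overlapped for *Fancc* to *Fance*, and without it the log2 difference was -0.85. With CPM in place of TPM over all libraries it was -1.12 (exact permutation test, unadjusted p = 0.0286). For *Fance* to *Fancf* the overlapping one was *Arid1a* WT library 2, and without it the log2 difference went from -0.31 to -0.43. Leaving out the overlapping library sets the groups apart by construction, so no p-value is read from it. With CPM in place of TPM over all libraries, the log2 difference of *Fance* to *Fancf* was -0.017 (exact permutation test, p = 1).

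**Figure D3:**
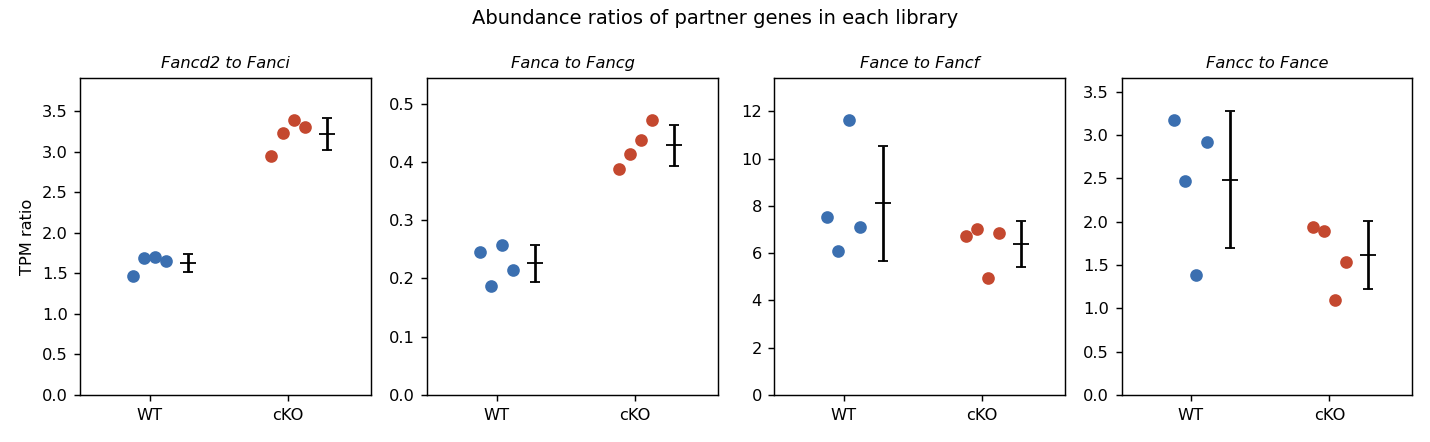
Each point is the TPM ratio of 2 partner genes in 1 library (vertical axis from 0), with *Arid1a* WT in blue, *Arid1a* cKO in red, and the mean and SD as bars (n = 4). *Fancd2* to *Fanci* and *Fanca* to *Fancg* lie higher in all 4 *Arid1a* cKO libraries, and the other 2 ratios overlap.

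Counts divided by TPM give the average length of a gene's transcripts as Salmon estimated it, and limma was run on its log2 value in 13958 genes. By this measure 4 of the 10 genes were longer in *Arid1a* cKO and 0 were shorter, where 40.8% of genes tested were called longer and 10.02% shorter. *Fancg* had the largest change of the 4, with log2 lengths relative to the median gene of -0.037, -0.098, -0.058 and -0.065 in *Arid1a* WT and 0.13, 0.22, 0.21 and 0.21 in *Arid1a* cKO. The groups did not overlap, and the difference of 0.26 (limma adjusted p = 0.000129) is a 1.19-fold longer estimated length. *Fancg* has 10 annotated transcripts, and whether those in use differed was not tested. *Slx4* was longer by 0.092 (limma adjusted p = 0.00279) and *Fancf* by 0.064 (limma adjusted p = 0.00016). *Fancf* has 1 annotated transcript in GENCODE M21, so a difference of that size was read in a gene with no other transcript to shift to in that annotation. *Fancd2* was longer by 0.12 (limma adjusted p = 0.0418), a call that was lost without *Arid1a* WT library 1 or 2 or without *Arid1a* cKO library 1, 2 or 4, where adjusted p was between 0.0562 and 0.0988. *Fancc* was not called (-0.17, limma adjusted p = 0.0743) and was called shorter without *Arid1a* cKO library 3 (-0.21, limma adjusted p = 0.0372). *Fancm* was not called and spread widely, from 0.86 to 1.69 in *Arid1a* WT and 0.45 to 1.55 in *Arid1a* cKO.

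The sequence around a start site of each gene was read for short motifs. RefSeq promoters of GRCm38.p6, each 250 bases before to 50 bases after a start, were available for 9 of the 10 genes. The start in that table is the outer end of the gene's interval for *Fance*, *Fancf* and *Fancl*, and lies inside the interval for *Fanca*, *Fancc*, *Fancg*, *Fanci*, *Fancm* and *Slx4*. All windows printed for *Fanca*, *Fancg*, *Fanci* and *Fancm* thus lie within the annotated gene. Motif letters were searched on both strands, and each line below gives 30 bases 5′ to 3′ on the strand of the gene, with the motif or its reverse complement in capitals. The MYB core AACGG was in 2 of the 9, *Fancg* and *Fanci*, and in 17.4% of all 32817 promoters, and nothing is read from this about their fall. *Fancg* also held the core AACTG, as did *Fancl* and 44.8% of all promoters.
*Fancg* chr4:43010506-43010535 (-): gaaacctggactgCCGTTggttctaaggca
*Fancg* chr4:43010403-43010432 (-): cctgcagacccagCAGTTcgtccttggcat
*Fancg* chr4:43010340-43010369 (-): ccgggtttcttttCAGTTtcccgcggaacc
*Fanci* chr7:79392316-79392345 (+): tgttgctctgggcAACGGaagtgcggctgc
*Fancl* chr11:26387083-26387112 (+): aagcagacCAGTTggccCAGTTcattgtcc

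The NFY box CCAAT was in the promoters of *Fanca*, *Fancc*, *Fance*, *Fancf*, *Fancm* and *Slx4*, 6 of 9 members, and in 37.4% of all promoters. It was thus in genes called lower and in both genes not called. *Fancf* held it 3 times, *Fanca* held it 2 times, and *Fancm* had it next to the E2F site TTCCCGCC, which 2.19% of promoters hold and no other member had. The ETS site CCGGAAG was in *Fance* and in 8.86% of promoters. The CRE TGACGTCA, in 1.79% of promoters, was in 0 of the 9. These are matches of letters only.
*Fancf* chr7:51862369-51862398 (-): ttcattttcagcgCCAATgtgccccggaaa
*Fancf* chr7:51862323-51862352 (-): acacggccgtcgtCCAATggcacagcacgc
*Fancf* chr7:51862282-51862311 (-): ctcacgctcatgtCCAATcggctcgcgcct
*Fanca* chr8:123318610-123318639 (-): agcatgctcctagCCAATgagcgccagcgc
*Fanca* chr8:123318583-123318612 (-): cgcctggccgcggCCAATcggaaggcagcg
*Fancm* chr12:65075533-65075562 (+): atggcaaCCAATcatcTTCCCGCCgcaaaa
*Fance* chr17:28313488-28313517 (+): atgatcacgtccCTTCCGGccccgccccga

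Beside the 10 genes, 31 other genes of the pathway were tested, of which 17 were lower, 6 were higher and 8 were not called, with a median log2 fold change of -0.30. Over all genes tested 37.5% were lower and 36.5% higher, and the subgroups below hold 3 to 8 genes each, so nothing particular to a subgroup is read from its count. Among 6 further partners of the core complex and of FANCM, 4 were lower and 0 were higher. *Fancb*, the X-linked subunit that sits beside FANCL, had 2, 5, 5 and 3 estimated counts in *Arid1a* WT and 4, 1, 3 and 3 in *Arid1a* cKO, too few to set apart (log2 fold change -0.23, SE 0.55, edgeR adjusted p = 0.720). In the ubiquitin cycle 2 genes were lower and 1 was higher, and *Ube2t*, which encodes the enzyme that hands ubiquitin to FANCL, fell more than any of the 10 genes, from 90.3 ± 6.76 to 21.9 ± 0.640 CPM (SD, n = 4, log2 fold change -2.04, SE 0.062, edgeR adjusted p = 6.35e-13). Of 7 nuclease genes, 2 were lower, 2 were higher and 3 were not called. *Eme1*, which encodes the partner of MUS81, fell by 1.76 on the log2 scale, and *Ercc4*, which encodes XPF, rose by 0.33.

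In homologous recombination 5 of 8 genes were lower, 2 were higher and 1 was not called. *Xrcc2*, which acts in strand exchange, fell from 24.3 to 8.96 CPM (log2 fold change -1.45). *Brca1*, which acts in recombinational repair of breaks, rose from 17.4 to 40.2 CPM (log2 fold change 1.21), and *Brip1*, the helicase that binds BRCA1, rose from 6.70 to 15.1 CPM (1.18). Of 3 translesion synthesis genes, 2 were lower, and *Rev3l*, the catalytic subunit of polymerase zeta, rose by 1.32 from 89.5 to 223 CPM. Of the 4 genes of the BLM complex, 2 were lower and 0 were higher, and *Top3a*, its topoisomerase, fell by 1.42 from 61.6 to 23.1 CPM. Scaled to the pachytene markers, 13 of the 31 genes were called higher and 11 were called lower.

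**Figure D4:**
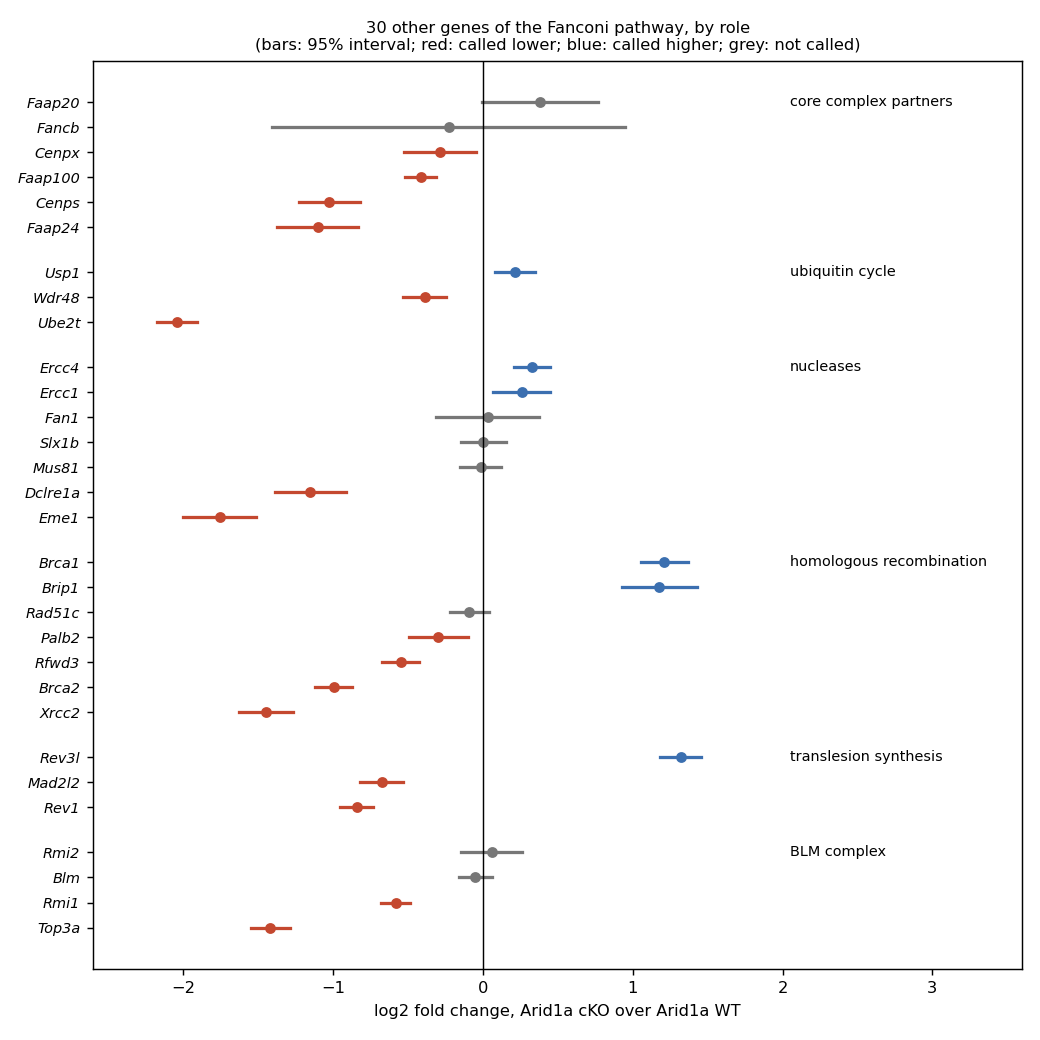
Log2 fold change (horizontal axis, *Arid1a* cKO over *Arid1a* WT) of 30 of the 31 other genes of the pathway with 95% intervals, grouped by role, with 16 genes called lower in red, 6 called higher in blue and 8 not called in grey. *Ube2t* (-2.04) is the lowest and *Rev3l* (1.32) the highest, and with scaling to pachytene markers 13 of the 31 genes are called higher and 11 lower.

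Across the 23 alternative settings, *Fancg*, *Fanci*, *Fanca*, *Fancc* and *Fancm* stayed below 0 and were called in each. Of these, *Fancm* came nearest to losing its call, with its highest adjusted p just under the threshold of 0.05. *Fanca* ranged from -1.27 to -0.41 on the log2 scale, *Fanci* from -1.73 to -1.15, *Fancc* from -0.93 to -0.37 and *Fancm* from -0.88 to -0.32. *Fancd2* (-0.86 to -0.079) and *Fancl* (-0.72 to -0.084) also stayed below 0 but lost their call when scaled to the pachytene markers. With any single library left out, the number of members called lower stayed at 8.

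**Figure D5:**
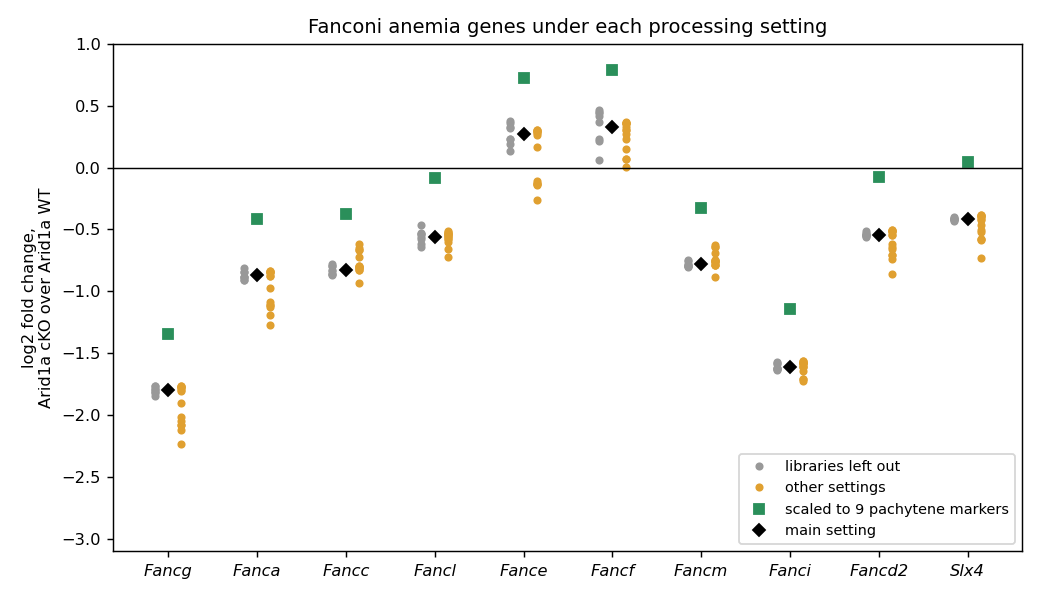
Log2 fold change (vertical axis, *Arid1a* cKO over *Arid1a* WT) of the 10 Fanconi anemia genes under the reported setting (diamond), with 1 library left out (grey), scaled to 9 pachytene markers (green squares) and under other settings (orange). Scaling to the pachytene markers moves every gene up, *Fancg* to -1.34 and *Slx4* to 0.044, and *Fance* falls on both sides of 0.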

How the data were processed

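Transcripts were quantified by the authors with Salmon and summarised to Entrez genes with tximport on mm10 annotation. The authors deposited estimated counts (unscaled) and TPM per gene for 8 libraries. Every column was matched to a sample by its label, with 0 columns left out. A deposited DESeq2 table of fold changes and adjusted p-values was not used. Names, coordinates and promoters are from RefSeq for GRCm38.p6, which matched 21036 of the 21058 gene IDs. Exon overlaps and 31-base words came from GENCODE M21.

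Estimated counts were rounded, since whole counts had been assumed in the design. A gene entered the edgeR 4.0.16 quasi-likelihood fit (R 4.3.3, TMM, genotype alone) with a sum of 10 counts or more, and was called if its Benjamini-Hochberg adjusted p did not exceed 0.05. Each SE was derived from the fold change and its F statistic. CPM used TMM-adjusted library sizes. Average transcript length was tested with limma 3.58.1 in genes with at least 10 counts in every library, and ratios of partner genes by two-sided exact permutation. The edgeR and limma tests were first run on simulated data with known changes. Estimated counts were few for *Fance*, *Fancf* and *Fancb*, and the part of depth in their precision was not tested. The labels call the libraries biological replicates without naming the animals. The study purified RNA from frozen pellets of pooled fractions, and whether libraries of a genotype came from separate pools of males is not stated. The p-values thus measure the spread between these libraries and not necessarily that between males.

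The members and all gene lists (the pathway list and markers of pachytene spermatocytes, spermatogonia, leptotene and zygotene spermatocytes, spermatids, Sertoli, Leydig, and macrophage and blood cells) were chosen with earlier results of these data known. Named were the 10 members, *Arid1a*, *Fancb* and, of the other pathway genes, the 4 called genes of each direction that changed most, provided that their average log2 CPM reached 1. One gene of the pathway list is counted but not reported by name here. The genes sharing exons with members, *Piwil1* and *Pgk2* were named after their values were seen. Alternatives were DESeq2 1.42.0, other size factors, filters, transcript length offsets, limma on log2(TPM + 1) or log2(TPM + 0.1), an adjusted p of 0.01, a replicate block and each library left out. TPM rescaled to the listed genes and scaling to pachytene markers were added after seeing the data.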

Additional observations from a re-analysis of the deposited data

Results flagged for a closer look

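Dixon's test was applied to 72 groups of 4 libraries, of which chance alone would mark about 1 in 20 (3.6), and 3 were marked. In *Arid1a* cKO, the CPM of *Fanci* had its lowest library, replicate 4 at 15.8, apart from the others at 17.5 to 17.8, with a gap of 0.882 of the range. The log2 average transcript length of *Fancg* was lowest in *Arid1a* cKO replicate 1, at 0.13 against 0.21 to 0.22 (gap 0.865 of the range), which is still above every *Arid1a* WT library. The TPM ratio of *Fance* to *Fancf* was lowest in *Arid1a* cKO replicate 3, at 4.97 against 6.73 to 7.03 (gap 0.854 of the range).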

How the results depend on the processing

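With libraries scaled to the 9 pachytene markers, 3653 genes were called lower and 8885 higher (70.9% of calls higher, against 49.3% as reported), 5 members were called lower and 1 higher (*Fance*, 0.73), and 13 pathway genes were called higher and 11 lower. *Slx4* turned to 0.044 and *Fancb* to 0.22, and *Arid1a* was at -0.054 (edgeR adjusted p = 0.711). Library size without TMM moved the median of all genes to -0.12 (44.9% of calls higher), log2(TPM + 0.1) to -0.11 (45.2%), and TPM rescaled to the listed genes to -0.15 (38.8%), the last with 3 pathway genes called higher. *Fance* turned to -0.13 with length offsets in edgeR, -0.11 with them in DESeq2, -0.13 in limma on log2(TPM + 1) with and without the filter, -0.14 on log2(TPM + 0.1) and -0.26 on rescaled TPM. In CPM the log2 ratio of *Fancc* to *Fance* was -1.12 and that of *Fance* to *Fancf* was -0.017. The cause of these changes was not tested.

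With libraries left out in turn, *Fancb* ranged from -0.44 to 0.028, *Fance* from 0.14 to 0.37, *Fancf* from 0.058 to 0.46, the ratio of *Fance* to *Fancf* from -0.43 to -0.12 and that of *Fancc* to *Fance* from -0.85 to -0.42. The length of *Fancl* ranged from -0.055 to 0.041 and that of *Fancm* from -0.25 to 0.12, and 0 to 1 members were called shorter. With a replicate block, 6429 genes were called higher and 6671 lower, and 8 members lower. Same-numbered libraries correlated at 0.162, 0.0125, 0.0852 and -0.137, and none correlated best with its own number. The other counts stayed within 1.5 times under every alternative run.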
